A study of Sinibotia superciliaris with 2 samples.

Results

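Genes of the lysosome, of proteases and their inhibitors and of autophagy were followed in the skin of Sinibotia superciliaris, a striped loach also called Botia superciliaris. They were found by keywords in the best protein match that the deposited annotation gives each unigene (the gene identifier of the assembly): cathepsin, lysosom, V-type proton ATPase, autophagy, calpain, caspase, peptidase, serpin, legumain, hexosaminidase and sphingomyelinase. Of 103 unigenes so found, 2 were dropped, 1 a proton pump accessory subunit and 1 a mitochondrial enzyme, and the other 101 were summed by the entry name of their best Swiss-Prot match into 79 genes. The annotation names 4058 genes in all, from 5675 of the 124650 unigenes with values, so a gene not found may only lack an entry. The 79 genes make up a small share of the 4058, and the keyword sphingomyelinase matched 0 unigenes. The keywords take in many peptidases that do not work in lysosomes.

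The samples were wild adult fish with a weight of 6.25 ± 0.30 g and a length of 8.75 ± 0.20 cm, and black and yellow skin came from 6 individuals. The labels name no treatment and no genetic alteration. They leave the ± values undefined, and pooling of the 6 fish is not stated. There was 1 RNA library per colour, so nothing below has a replicate check, no test across fish can be made, and each comparison describes these libraries only. Reads numbered 35386871 for black and 38323075 for yellow skin. Levels are given as RPM, that is, reads per 1000000 of the library. RPM is not divided by transcript length, so it is compared between libraries and not between genes. Each ratio of RPM is black over yellow unless stated otherwise and carries an approximate 95% interval that covers counting error only. As a check of the labels, 5 annotated melanophore genes summed to 22.8 RPM in black against 2.14 in yellow. The keratinocyte markers DSG2, DESP and CLD4, 3 of 11 listed, summed to 1631 and 1312 RPM.

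Lysosomes are acidic organelles in which hydrolases break down proteins, sugars and lipids. The V-type ATPase pumps in the protons, cathepsins and legumain cut proteins, and autophagy delivers the cell's own contents for breakdown. Melanosomes, the organelles in which pigment cells make melanin, belong to the lysosome-related organelles of vertebrates and share part of this machinery. Macrophages are known for high levels of cathepsins, and skin also uses peptidases and serpins in matrix turnover and secretion.

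The genes as a whole lay close to the other annotated genes of these libraries, with several cathepsins, the pump subunit A and a few peptidases on the black side. Of the 79 genes, 77 passed a minimum of 1 RPM in the mean of both libraries. Their log2 ratio, black over yellow on the log2(RPM + 1) scale, had a median of 0.29, against 0.21 over all 3644 annotated genes past the minimum. Its standard deviation across genes was 0.30, the same as over all genes. On that scale carboxypeptidase A1 was the single gene past 2-fold toward black, where 0.823% of all genes were, and 0 genes were past 2-fold toward yellow, against 0.137% of all. Past 1.5-fold, 8 genes (10.4%) were on the black side, where 6.81% of all genes were, and 1 gene (1.3%) was on the yellow side, against 1.43% of all. A log2 ratio below 0 was found in 11 genes (14.3%), against 19.7% of all. As deposited, these shares are near the background. After TMM scaling, 5 of 77 genes were past 1.5-fold toward black, where 2.77% of all genes were, a difference that was not tested. RNA of a whole tissue was sequenced, so fewer cells of a type and less RNA per cell cannot be told apart here.

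Most annotated genes had a somewhat higher RPM in the black library, with a median ratio of 1.17, and 1 scaling factor for a whole library moves all ratios together. The median log2 ratio of all genes was 0.21 as deposited and 0.03 after TMM scaling. Ratios are therefore read below against 1.17 as well as against 1. Of the 77 genes, 46 exceeded the median of all genes. The interval lay wholly above 1.17 in 23 genes (29.9%), where 19.0% of all genes were called so, and wholly below it in 13 (16.9%), where 20.0% were. The 79 genes had a median level of 24.3 RPM in the black library against 14.8 over all genes, and a higher level gives a narrower interval, so these shares are not read as a difference. Together the 79 genes held 2918 RPM in black against 2434 in yellow, for a ratio of 1.20 (1.18 to 1.21).

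**Figure D1:**
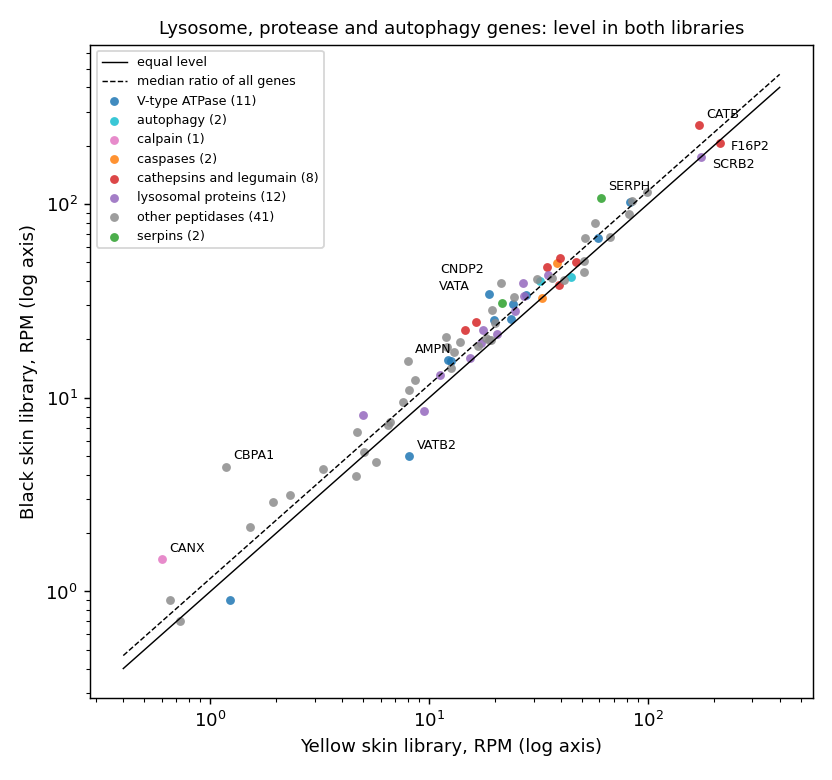
Level of each of the 79 genes in the yellow (x axis) and the black library (y axis), in RPM on log axes, 1 point per gene and coloured by class, with the number of genes per class in the key. The solid line marks equal levels and the dashed line the median ratio of all annotated genes, 1.17. Most points lie along the dashed line, with CBPA1, AMPN and VATA above it and VATB2 below it.

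The lysosomal cysteine proteases fell into genes above the bulk and genes below it. Cathepsin B, a papain-like protease, was at 255 RPM in black against 172 in yellow. It was higher in black skin, with a ratio of 1.48 (1.42 to 1.55). Cathepsin F had 22.5 RPM in black against 14.7 in yellow, for a ratio of 1.53 (1.31 to 1.79). Cathepsin Z, a carboxypeptidase, had 24.7 and 16.3 RPM, a ratio of 1.52 (1.31 to 1.76). These ratios lie close together, and the log2 ratios of 0.57 for B, 0.58 for F and 0.57 for Z were just short of the 1.5-fold line on the log2(RPM + 1) scale. Cathepsin C (dipeptidyl peptidase 1), which activates serine proteases of leukocyte granules in mammals, was at 47.5 and 34.7 RPM, a ratio of 1.37 (1.23 to 1.52). Legumain, which cuts after asparagine and processes cathepsins, was at 52.5 and 39.6 RPM, a ratio of 1.33 (1.20 to 1.46). All 5 intervals lay above the 1.17 of all genes.

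The other 3 genes of this class had nearly equal RPM in both libraries. Cathepsin K, the collagen-degrading protease of osteoclasts in mammals, was at 50.5 RPM in black against 47.1 in yellow, for a ratio of 1.07 (0.975 to 1.18). Its log2 ratio of 0.10 was below 0 under other scalings. Cathepsin H, an aminopeptidase, had 38.2 and 39.0 RPM, a ratio of 0.978 (0.880 to 1.09). Cathepsin L, a widespread endopeptidase, stands under the entry F16P2, because its unigene c104506_g1 holds 2 predicted proteins, 1 matching cathepsin L and 1 matching fructose-1,6-bisphosphatase. The reads of the 2 stretches cannot be told apart, and together they gave 207 and 213 RPM, a ratio of 0.971 (0.929 to 1.02). The intervals of cathepsin H and of this unigene lay wholly below 1.17. The class as a whole, 8 genes, had a median log2 ratio of 0.42, and 5 of the 8 lay above the median of all genes.

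Of the 9 unigenes in this class, 8 carry a predicted signal peptide, which sends a protein into the secretory route, against 9.80% of all annotated unigenes. A signal peptide was not part of the keyword rule, but these unigenes were picked by the names of lysosomal proteases. Their share therefore describes that choice and is no separate result. Over all 101 unigenes 28 had a signal peptide (27.7%), and 0 of the 16 pump unigenes did. A predicted membrane helix was present in 33 of the 101 (32.7%), against 25.2% of all annotated unigenes. The deposited annotation puts 28 of the 101 on the KEGG lysosome map, against 1.57% of all annotated unigenes. The keywords name lysosomal proteins, so this share follows in part from the choice of keywords.

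The V-type ATPase subunits mostly lay near the bulk, with the catalytic subunit A far above it and a subunit B unigene far below. The pump has a V1 sector in the cytosol, where subunits A and B form the ring that splits ATP, and a V0 sector in the membrane, which passes the protons. Subunit A was at 34.3 RPM in black against 18.9 in yellow. It was higher in black skin, with a ratio of 1.82 (1.60 to 2.08) and a log2 ratio of 0.83 that exceeded those of 98.2% of all genes. It was summed from 2 unigenes, both higher in black, but their intervals do not overlap. Most annotated genes had a log2 ratio above 0, so the shared direction is not read as agreement. One, c110162_g1, had 24.9 and 15.3 RPM, a ratio of 1.63 (1.40 to 1.89), and the other, c108287_g1, had 9.38 and 3.52 RPM, a ratio of 2.66 (2.0 to 3.59).

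Subunit B, brain isoform (VATB2), was the single gene past 1.5-fold toward yellow, at 5.0 RPM in black against 8.11 in yellow. The yellow/black ratio was 1.62 (1.24 to 2.13). This value rests on 177 and 311 reads of 1 unigene that encodes a stretch of 102 codons and whose best database match is a partial bird sequence, so it may not stand for the whole of subunit B. With a pseudocount of 5 its log2 ratio of -0.60 became -0.39. Of the other V1 subunits, the regulatory subunit H had a ratio of 1.26 (1.11 to 1.43) and subunit C (VTC1A), which joins the sectors, one of 1.27 (1.11 to 1.46). The second C entry, VTC1B, had 32 and 47 reads and a ratio of 0.737 (0.365 to 1.45), which does not separate it from 1 or from the bulk. Subunit F, of the central stalk, had a ratio of 1.23 (1.03 to 1.47) as a sum. Its 2 unigenes, c103308_g1 with 1.53 (1.17 to 2.0) and c103308_g2 with 1.03 (0.803 to 1.31), have intervals that overlap.

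The V0 subunits differed little from each other. The proteolipid subunits of the proton-carrying ring were at 103 RPM in black against 83.0 in yellow for VATL and at 33.8 and 27.6 RPM for VATO, with ratios of 1.24 (1.16 to 1.33) and 1.22 (1.09 to 1.38). The large membrane subunit a, which holds the proton half-channels, is present as isoforms 1 and 2 (VPP1 and VPP2). Isoform 1 had 66.8 and 59.4 RPM, a ratio of 1.12 (1.04 to 1.22), and isoform 2 had 15.7 and 12.2 RPM, a ratio of 1.29 (1.08 to 1.54). Subunit d (VA0D1), which links the sectors, had a ratio of 1.08 (0.947 to 1.23). Over the 11 pump genes the median log2 ratio was 0.28, and 7 lay above the median of all genes. Summed, V0 genes had 245 and 206 RPM, a ratio of 1.19 (1.14 to 1.24), and V1 genes 111 and 84.6 RPM, a ratio of 1.31 (1.23 to 1.40). The pump genes furthest from the bulk, VATA above it and VATB2 below it, are both in the V1 sum. They do not weigh alike there. VATA held 34.3 RPM of that sum in black and 18.9 in yellow, against 5.0 and 8.11 for VATB2. The V1 ratio therefore leans on VATA and is not read as a trait of the sector.

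**Figure D2:**
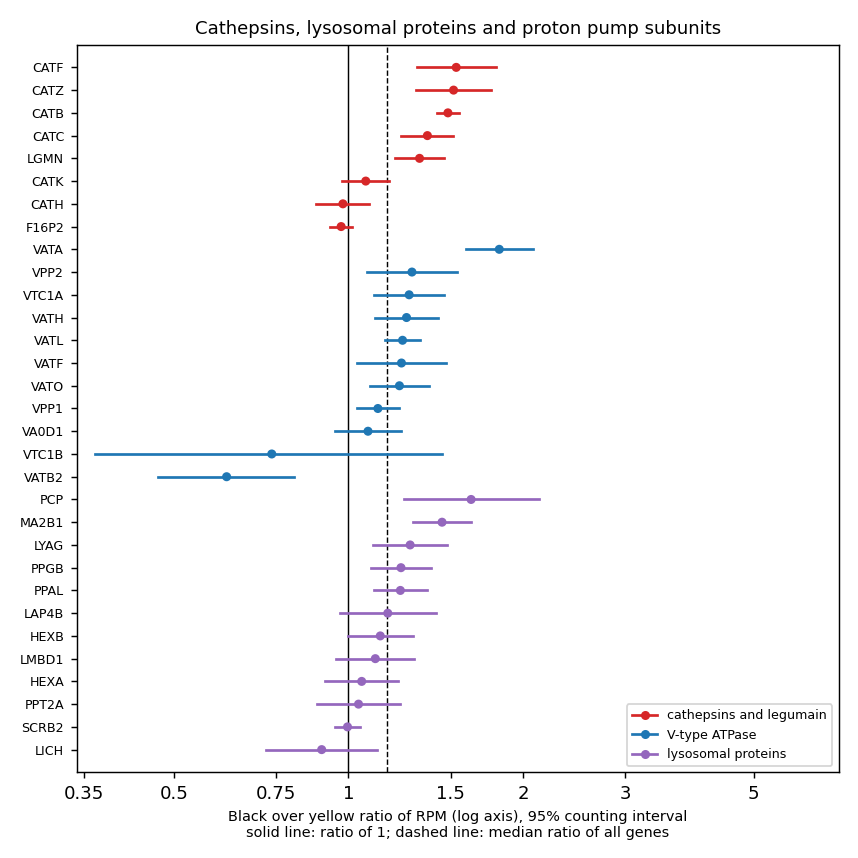
Black over yellow ratio of RPM (log axis) for 8 cathepsin and legumain genes, 11 pump subunits and 12 lysosomal proteins, each with its 95% counting interval as a bar. The solid line marks 1 and the dashed line 1.17, the median of all genes. The 5 upper cathepsin and legumain genes lie to the right of the dashed line, VATA stands apart from the other pump subunits, and VATB2 lies to the left of 1.

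The lysosomal enzymes and membrane proteins named as such sat with the bulk. Their median log2 ratio was 0.19 over 12 genes, and 6 exceeded the median of all genes. Lysosomal Pro-X carboxypeptidase (PCP), which removes a residue after proline, was at 8.11 RPM in black against 4.98 in yellow. It was the member of the class most on the black side, with a ratio of 1.63 (1.25 to 2.13), and its log2 ratio of 0.61 was under the 1.5-fold line after TMM scaling. Lysosomal alpha-mannosidase (MA2B1), which trims mannose from glycoproteins, had 39.0 and 26.9 RPM, a ratio of 1.45 (1.29 to 1.63). Alpha-glucosidase (LYAG), which breaks down glycogen, had a ratio of 1.28 (1.10 to 1.48), and the protective protein (PPGB, cathepsin A) one of 1.23 (1.09 to 1.39).

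The remaining proteins of the class had ratios at or near the bulk or under it. The beta-hexosaminidase subunits alpha and beta, which together degrade gangliosides and glycans, had ratios of 1.05 (0.913 to 1.22) and 1.13 (0.998 to 1.29). The thioesterase PPT2 had a ratio of 1.04 (0.881 to 1.23), the cobalamin transporter LMBD1 one of 1.11 (0.953 to 1.30) and the transmembrane protein LAP4B one of 1.17 (0.966 to 1.41). Acid lipase (LICH), which frees cholesterol from its esters, was at 8.56 RPM in black against 9.52 in yellow, for a ratio of 0.899 (0.720 to 1.12). Acid phosphatase (PPAL) had a ratio of 1.23 (1.11 to 1.37), but its unigene also encodes a match to sorting nexin 1, and the share of each is not known.

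Lysosome membrane protein 2 (SCRB2), which carries glucocerebrosidase to the lysosome in mammals, looked equal as a sum and was not equal in its 2 unigenes. The sum was 174 RPM in black against 175 in yellow, for a ratio of 0.996 (0.948 to 1.05). Unigene c111355_g2, with a predicted protein of 532 codons, had 111 RPM in black against 79.9 in yellow, for a ratio of 1.38 (1.29 to 1.48). Unigene c111149_g3, with 511 codons, had 63.6 RPM in black against 95 in yellow, 1.49-fold higher in the latter (1.39 to 1.61). The first was higher in the black and the second in the yellow library, and their intervals do not overlap. Both match the human protein best and have 2 predicted membrane helices, and whether they stem from the same gene is not known. A scaling factor moves both alike and cannot close this gap.

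**Figure D3:**
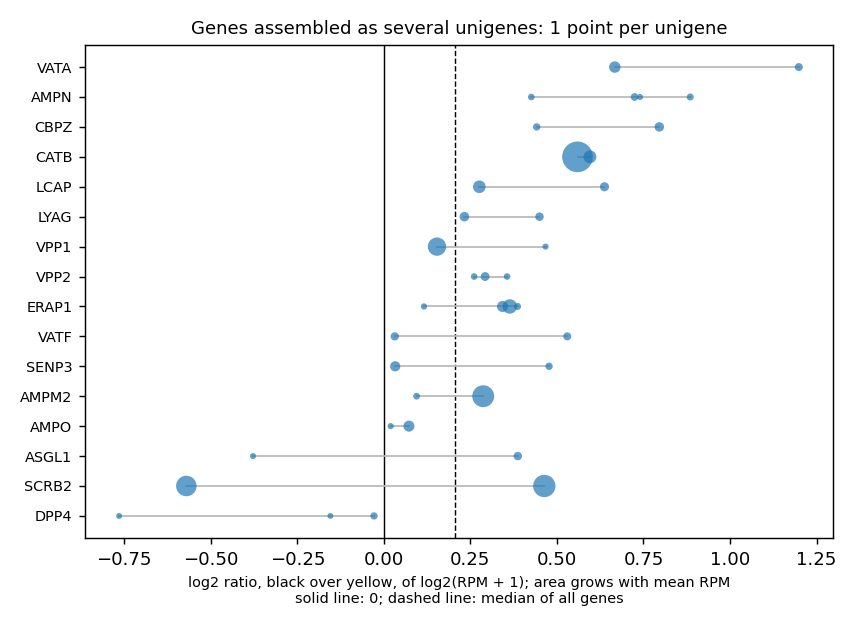
Log2 ratio of log2(RPM + 1), black over yellow, for each unigene of the 16 genes that were summed from several unigenes. Points are unigenes, with an area that grows with the mean RPM. The solid line marks 0 and the dashed line 0.21, the median of all genes. The 2 SCRB2 points, at 0.46 and -0.57, lie on opposite sides of 0, while both VATA points and all 4 AMPN points lie above 0.21.

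Among the 16 genes summed from several unigenes, all unigenes of 13 had a log2 ratio above 0, and all of 1, DPP4, below 0. The signs were mixed in 2, SCRB2 and the asparaginase-like peptidase ASGL1. Of all 3644 annotated genes past the minimum, 2927 had a log2 ratio above 0, so these counts are not read as agreement between unigenes. The cathepsin B unigenes c101876_g1 and c101876_g2, at 222 and 33.2 RPM in black skin, had ratios of 1.48 (1.41 to 1.55) and 1.53 (1.35 to 1.74), so they differed by less than counting error.

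Other lysosomal genes, from lists written with earlier results of these data known and free of the 79 genes, were described beside them. Of 57 hydrolases listed, 23 were annotated under their entry names and outside the 79 genes. All 23 passed the minimum, 2 were past 1.5-fold toward black and 0 toward yellow, near the 6.81% and 1.43% of all genes. Their median log2 ratio was 0.36, and 17 lay above the median of all genes, a difference that was not tested. DNS2B, an acid nuclease, was at 6.47 and 3.03 RPM, a ratio of 2.14 (1.55 to 2.99). PCYOX, which degrades prenylcysteines, had a ratio of 1.86 (1.45 to 2.40). Glucocerebrosidase (GLCM), the cargo of SCRB2, had 16.6 and 15.9 RPM, a ratio of 1.04 (0.883 to 1.23). Of 85 genes listed for lysosomal membrane, traffic and sorting, 15 were annotated outside the 79 genes. They had a median of 0.25, with 8 above the median of all genes. Of these 15, 1 was past 1.5-fold toward black, again near the 6.81% of all genes. That gene, GNPTA, makes the mannose-6-phosphate tag that sends hydrolases to the lysosome, and was at 11.9 and 6.83 RPM, a ratio of 1.74 (1.39 to 2.18). The receptor of the tag, MPRI, had 40.2 and 28.0 RPM, a ratio of 1.43 (1.28 to 1.61).

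A wider set was taken from the annotation itself after the values were seen. Unigenes whose best Swiss-Prot match was a maize or rice protein were left out. The set holds 44 other genes that the annotation puts on the KEGG lysosome map, and it overlaps the lists above. Of these, 41 passed the minimum, 6 were past 1.5-fold toward black and 0 toward yellow, against 6.81% and 1.43% of all genes, and the median log2 ratio was 0.34, with 30 above the median of all genes. Besides DNS2B and GNPTA, the 6 were the peptide transporter ABCB9, the adaptor subunit AP4B1, clathrin heavy chain (CLH) and cathepsin D (CATD). Cathepsin D, an aspartic protease of lysosomes that the keyword rule misses because its best match is an unnamed zebrafish protein, was at 28.3 RPM in black against 16.5 in yellow, for a ratio of 1.71 (1.49 to 1.98). The dropped pump accessory subunit VAS1 had a ratio of 1.35 (1.18 to 1.55).

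Of the autophagy genes the keyword found 2. ATG16L1 (A16L1), which helps attach lipid to LC3 on the growing autophagosome, was at 40.0 and 32.2 RPM, a ratio of 1.24 (1.11 to 1.39). A kinase of the ULK family (ULK2), which starts autophagy, was at 41.8 and 44.5 RPM, a ratio of 0.938 (0.849 to 1.04). Its best database match is zebrafish unc-51 like kinase 1a, so the copy is uncertain. Of 11 measured genes from the autophagy initiation and regulation list, 0 were past 1.5-fold in either direction, and the median was 0.24. Of all genes 6.81% were past it toward black and 1.43% toward yellow, so 0 of 11 is not read as a difference. Among them ULK1 had a ratio of 1.26 (1.09 to 1.46), MTOR, the kinase that restrains autophagy, 1.18 (0.992 to 1.41), and BNI3L, a mitophagy receptor, 0.970 (0.913 to 1.03). The 2 keyword genes had a median of 0.11 as deposited and -0.07 after TMM scaling, so the pair gives no stable direction.

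Caspase-3, which carries out apoptosis, was at 49.6 RPM in black against 38.3 in yellow, for a ratio of 1.30 (1.17 to 1.43). Caspase-8, which starts apoptosis at death receptors, was at 32.7 RPM in both, a ratio of 1.0 (0.892 to 1.12), so its interval lay below the bulk. Calpain-1 (CANX in Swiss-Prot, not calnexin), a calcium-activated protease of the cytosol, had 52 reads in black against 23 in yellow, for a ratio of 2.45 (1.18 to 5.40). At this depth the interval reaches from near the bulk to several-fold, and the gene was short of the 1.5-fold line after TMM scaling.

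Both serpins were on the black side. Serpin H1 (SERPH), also called HSP47, is no protease inhibitor but a chaperone of collagen in the endoplasmic reticulum. It was at 108 RPM in black against 61.2 in yellow, for a ratio of 1.76 (1.64 to 1.90), and its log2 ratio of 0.81 exceeded those of 98.0% of all genes. The leukocyte elastase inhibitor (ILEU, a serpin B1) was at 30.6 and 21.6 RPM, a ratio of 1.42 (1.24 to 1.61). The membrane Kunitz inhibitor SPIT1, which restrains matriptase in epithelia, was at 115 and 99.3 RPM, a ratio of 1.16 (1.09 to 1.23), close to the bulk. TIMP2, an inhibitor of matrix metalloproteases, had 76 and 58 reads and a ratio of 1.42 (0.852 to 2.39).

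The list of matrix proteases and protease inhibitors went both ways. Of 94 genes listed, 32 were annotated outside the 79 genes and 31 passed the minimum. Of these 31, 4 were past 1.5-fold toward black and 2 toward yellow, against 6.81% and 1.43% of all genes, and the median log2 ratio was 0.26. MMP9, a gelatinase, had 84 and 16 reads, a ratio of 5.69 (2.64 to 14.02). On the log2(RPM + 1) scale it was the single gene of the list past 2-fold, where 0.823% of all genes were toward black. The others of the 4 were BMP1, which trims the ends of procollagen, with a ratio of 1.65 (1.33 to 2.07), the aggrecanase-like ATS15 with 1.58 (1.33 to 1.90), and TIMP3. TIMP3, a metalloprotease inhibitor, had 72 and 26 reads, a ratio of 3.0 (1.55 to 6.16), and a log2 ratio of 0.85 on the log2(RPM + 1) scale. On the yellow side were neprilysin (NEP), at 3.05 RPM in black against 5.76 in yellow, 1.89-fold higher in the latter (1.35 to 2.67), and ADA12 with 1.70 (1.29 to 2.25). Matriptase (ST14), the target of SPIT1, had a ratio of 1.23 (1.17 to 1.30), near that of its inhibitor.

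The remaining genes, mostly peptidases but with the inhibitors SPIT1 and TIMP2 and the disaggregase CLPB among them, were the largest class. It held 41 genes, of which 39 passed the minimum. Their median log2 ratio was 0.29, with 4 (10.3%) past 1.5-fold toward black and 0 toward yellow, near the 6.81% and 1.43% of all genes. The 2 below the minimum were DPEP3, with 32 and 25 reads, and DPP10, with 25 and 28 reads. They were sorted by function after their values had been seen.

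Carboxypeptidases were summed to 179 RPM in black against 132 in yellow, for a ratio of 1.36 (1.29 to 1.43), and 2 of 8 were past 1.5-fold toward black, where 6.81% of all genes were. A group this small, sorted after the values were seen, is described only. Carboxypeptidase D alone held 80.0 RPM of this sum in black and 57.0 in yellow. Summed, aminopeptidases had a ratio of 1.21 (1.17 to 1.26), and dipeptidases and dipeptidyl peptidases 1.25 (1.19 to 1.32). Signal peptide processing genes had 1.22 (1.14 to 1.32), inhibitors 1.16 (1.09 to 1.24), and endopeptidases, SUMO proteases and others 1.03 (0.989 to 1.08). Carboxypeptidase A1 (CBPA1), a digestive enzyme of the pancreas whose best database match is carboxypeptidase A2 of zebrafish, was at 4.41 RPM in black against 1.17 in yellow. Its ratio was 3.75 (2.32 to 6.30) from 156 and 45 reads, the widest gap among the 77 genes. Carboxypeptidase Z (CBPZ), a secreted enzyme with a Wnt-binding domain, was at 20.5 and 11.97 RPM, a ratio of 1.71 (1.45 to 2.03), and it was short of the 1.5-fold line after TMM scaling. Its 2 unigenes had ratios of 1.82 (1.49 to 2.23) and 1.46 (1.06 to 2.02). Carboxypeptidase D, which trims peptides in the trans-Golgi, was at 80.0 and 57.0 RPM, a ratio of 1.40 (1.30 to 1.52). CPVL, a serine carboxypeptidase known from human macrophages, had a ratio of 1.39 (1.18 to 1.64). The plasma and membrane enzymes CBPN and CBPM had ratios of 1.03 (0.768 to 1.39) and 1.11 (0.944 to 1.29).

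Aminopeptidases ranged from aminopeptidase N down to glutamyl aminopeptidase, which were at opposite ends of the group. Aminopeptidase N (AMPN), a surface enzyme of myeloid and epithelial cells, was at 15.5 RPM in black against 7.98 in yellow, for a ratio of 1.95 (1.59 to 2.39). It was summed from 4 unigenes, of which 3 had an interval wholly above 1, and the fourth, c110590_g1, had a ratio of 1.53 (0.974 to 2.43). Glutamyl aminopeptidase (AMPE), which cuts angiotensin, was at 3.95 and 4.64 RPM, a ratio of 0.852 (0.614 to 1.18). ERAP1, which trims peptides for MHC class I, had 66.9 and 51.7 RPM, a ratio of 1.29 (1.19 to 1.41). Leucyl-cystinyl aminopeptidase (LCAP) had a ratio of 1.32 (1.18 to 1.48), but 1 of its 2 unigenes also matches ERAP1, so reads of these relatives may be mixed. The 2 unigenes had log2 ratios of 0.64 and 0.28. Without the unigene that also matches ERAP1, LCAP was past 1.5-fold toward black. Methionine aminopeptidase 2 (AMPM2), which removes the first methionine of new proteins, was at 103 and 84.8 RPM, a ratio of 1.22 (1.14 to 1.30).

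Dipeptidases and dipeptidyl peptidases were led by CNDP2, the cytosolic dipeptidase that hydrolyses carnosine and other dipeptides. CNDP2 was at 38.9 RPM in black against 21.4 in yellow, for a ratio of 1.82 (1.61 to 2.06). DPP3, which binds KEAP1 in mammals, had 28.3 and 19.3 RPM, a ratio of 1.47 (1.28 to 1.68), and the lysosomal tripeptidyl-peptidase TPP1 had 33.0 and 24.5 RPM, a ratio of 1.34 (1.19 to 1.52). DPP9, a cytosolic relative, was at 67.3 and 67.2 RPM, a ratio of 1.0 (0.925 to 1.08). DPP4, a surface enzyme that inactivates incretins and chemokines, was at 4.63 and 5.69 RPM, for a yellow/black ratio of 1.23 (0.913 to 1.66), so its difference from 1 is within counting error. Its unigene c97193_g4 had 5 and 36 reads.

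The signal peptidase complex, which removes signal peptides in the endoplasmic reticulum, had subunits near the bulk and above it. Its subunit SPCS2 was at 18.2 and 12.1 RPM, a ratio of 1.51 (1.27 to 1.79), while SPCS3 had 1.14 (1.02 to 1.26) and the catalytic SC11A 1.12 (0.938 to 1.35). The intramembrane protease SPP2B had a ratio of 1.34 (1.08 to 1.67). ADAM17 (ADA17), the sheddase that releases TNF and EGF-family ligands, was at 44.3 RPM in black against 50.8 in yellow, 1.15-fold higher in the latter (1.04 to 1.26). With VATB2 it was 1 of 2 members whose interval lay wholly below 1 (2.6%), where 5.71% of all genes were called so, and 43 members (55.8%) lay wholly above 1, against 49.6% of all. PHEX, a bone and tooth mineral regulator, had a ratio of 1.42 (1.07 to 1.89). The SUMO protease SENP3, the disaggregase CLPB and the gamma-glutamyl enzyme GGT1 had ratios of 1.12 (0.963 to 1.30), 1.0 (0.915 to 1.10) and 1.08 (1.01 to 1.16).

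The other 11 of the 39, which are AMPL, XPP1, PSA, AMPO, DNPEP, NALD2, DPP6, DPEP2, CBPC5, CBPQ and PPCE, had ratios from 0.980 for PSA, the puromycin-sensitive aminopeptidase, to 1.49 for NALD2. Past 1.5-fold there were 0 of them, where 6.81% of all genes were toward black and 1.43% toward yellow. Over all classes, 13 genes (16.9%) had an interval wholly below 1.17, where 20.0% of all genes did, and 23 had one wholly above. The 13 were ADA17, CASP8, CATH (cathepsin H), CLPB, DPP4, DPP9, F16P2, GGT1, LICH, PSA, the SCRB2 sum, ULK2 and VATB2.

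**Figure D4:**
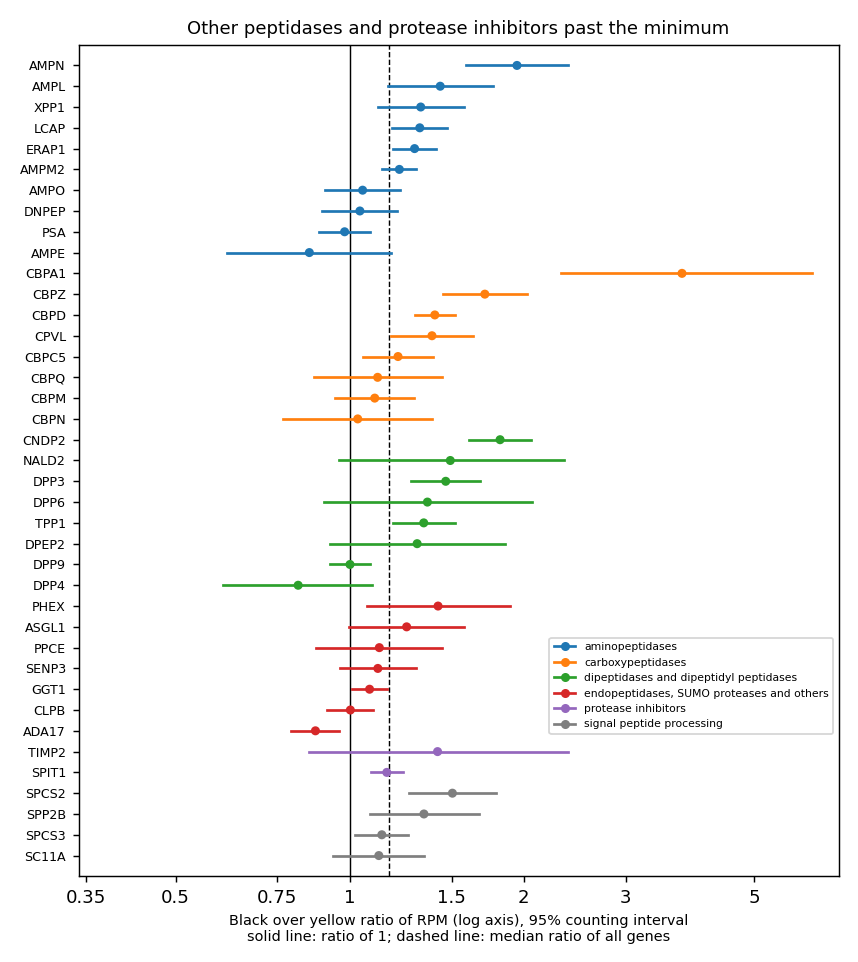
Black over yellow ratio of RPM (log axis) for the 39 other peptidases and inhibitors past the minimum, coloured by function, with 95% counting intervals as bars. The solid line marks 1 and the dashed line 1.17, the median of all genes. CBPA1, AMPN, CNDP2 and CBPZ lie furthest to the right, and the interval of ADA17 lies wholly to the left of 1.

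The libraries also differed in marker genes of other cell types, and their part in the results above was not tested. Of 14 leukocyte genes listed, 6 were annotated, as 7 entries that summed to 393 RPM in black against 288 in yellow, for a ratio of 1.37 (1.32 to 1.42). Of the 6 entries past the minimum, 3 were past 1.5-fold toward black, against 6.81% of all genes, and the group median log2 ratio was 0.62, above the 0.42 of the cathepsin class. The markers ran from CSF1R, with 1.87 (1.70 to 2.06), to IRF8, with 1.06 (0.995 to 1.12), and the invariant chain HG2A had 5 reads in each library. The listed gene CXCR4 stands as 2 entries, CXCR4 and CXR4B. Which cells the CSF1R reads come from was not tested. Of 5 osteoclast genes 2 were annotated, cathepsin K and PPA5, and PPA5, an acid phosphatase, had a ratio of 1.40 (1.14 to 1.72). Skeletal muscle markers, 8 of 13 annotated, summed to 2189 and 2594 RPM, with a median log2 ratio of -0.14. Of these 8, 0 were past 1.5-fold, against 6.81% of all genes toward black and 1.43% toward yellow. The 3 annotated keratinocyte markers had a median of 0.33, and the 3 measured erythrocyte markers, of 7 listed, one of -0.20. The sum of all 4 annotated erythrocyte markers, 77.6 and 63.9 RPM, was higher in black, but TFR1 alone held 68.1 and 50.4 RPM of it. HEM0, CAHZ and B3AT had ratios below 1. The intervals of HEM0, at 0.859 (0.687 to 1.07), and of B3AT, at 0.379 (0.0776 to 1.38) from 7 and 20 reads, include 1. CAHZ, with 38 and 129 reads, was past 2-fold toward yellow, where 0.137% of all genes were. The 2 annotated mucous cell markers had a median of 0.89 and the 3 annotated oocyte markers one of 1.69. None of the annotated markers was at 0 reads.

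**Figure D5:**
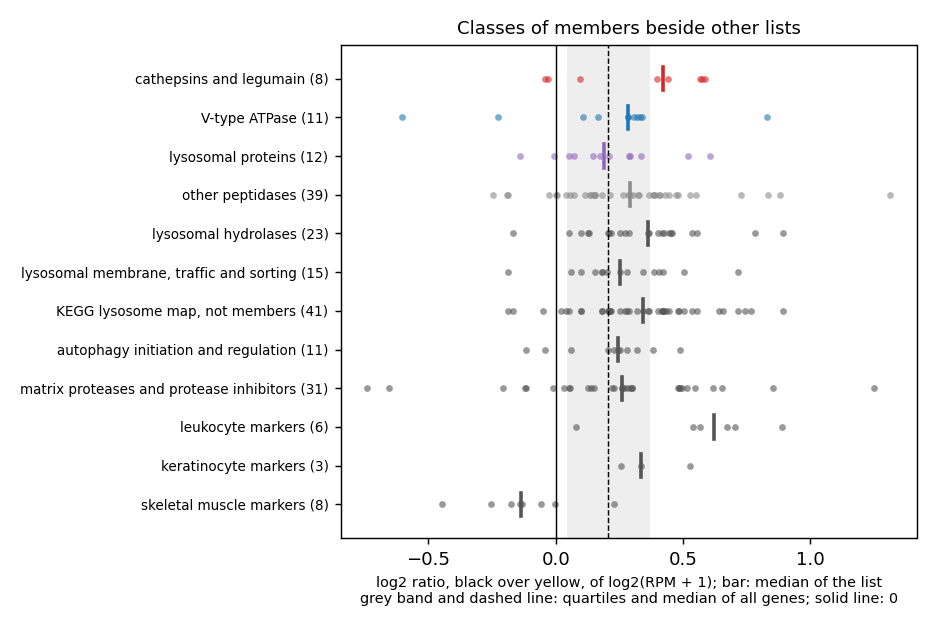
Log2 ratio of log2(RPM + 1), black over yellow, for the genes past the minimum in 4 classes of members (coloured), in lists of other lysosomal, autophagy and matrix genes and in markers of 3 cell types (dark grey), with the number of genes in brackets. Each short bar is a median, the grey band and dashed line give the quartiles and median of all genes, and the solid line marks 0. The cathepsin class at 0.42 and the leukocyte markers at 0.62 have medians above the band, and skeletal muscle markers lie mostly below 0.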

How the data were processed

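The authors deposited 1 normalised signal per unigene and library, which the file headers call normalised and do not define. From the values it is RPM. Repeated rows of a unigene were used once, 124650 unigenes in all. Whole reads were recovered from the step between values, 0.0282 RPM for black and 0.0261 for yellow, and 100% of values were whole within 0.1 read, the lowest value, 0.5 of a read, being taken as 0 reads. The annotation, other than measurements per the file headers, gave names, predicted proteins, signal peptides, membrane helices and pathway maps. Genes without an entry there were not analysed here. Per the submitters' processing notes GRCz11 was used, in a role they do not give. Which assembler, aligner and counter were used is not given in the sources used here.

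Annotated unigenes were summed by the Swiss-Prot entry name of the best BLASTX hit, or of the BLASTP hit where there was none. The 79 genes were summed over unigenes found by keyword. A log2 ratio uses log2(RPM + 1) and a minimum mean of 1 RPM. Intervals of ratios have the Clopper-Pearson form at 95%, conditional on the reads of both libraries, with each read pair counted once, since even read numbers were the commoner at the lowest values: of black unigenes 8897 had 2 reads, 6459 had 1 and 7299 had 3. PCR copies cannot be told apart. With 1 library per colour the count test on recovered reads could not be run, since no spread between replicates can be estimated.

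The members and lists were chosen with earlier results of these data known. Named genes followed a rule fixed with the design: all pump, cathepsin, caspase, calpain and serpin genes, and in other classes those past 1.5-fold with an interval that leaves out 1, the highest, the lowest and the 2 most abundant. Further genes are named to account for the rest. Alternatives changed the scaling, pseudocount, minimum and joining of unigenes. The 1.5-fold rule and the intervals were tested on simulated counts. These were drawn as whole read pairs, as the intervals assume, so the test does not check that assumption. The keyword choice, recovery of reads, joining of unigenes and scalings were not simulated. Python 3.11.15, scipy 1.17.1 and edgeR 4.0.16 (for TMM factors) were used.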

Additional observations from a re-analysis of the deposited data

How the results depend on the processing

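No paired analysis was possible because each colour has 1 library. The following alternatives were chosen after seeing the data: centring on the median of all genes, summing all annotated unigenes of an entry name, and leaving out 3 unigenes whose deposited rows match different proteins. The median log2 ratio of the 77 genes, 0.29 as deposited, was 0.11 after TMM scaling, 0.15 after median-of-ratios scaling, 0.13 without the 2 and 0.11 without the 100 most abundant unigenes in the totals, and 0.084 after centring. It stayed above the median of all genes under each of these. Each applies 1 factor per library, which moves both medians together, so this order is no separate check. The count of genes at least 2-fold apart, 1 as reported, was 2 with a pseudocount of 0.1, 0 with a pseudocount of 5 and 0 at 5 times the minimum. The share of all genes past 2-fold was not taken under these alternatives, so these counts are not read as a difference. The count at 1.5-fold, 9, stayed within 1.5 times under every alternative, but the share of all genes past it moved as well. That count was 6 after TMM scaling (5 higher in black and 1 in yellow), where 2.77% of all genes were higher in black and 2.69% in yellow. Median-of-ratios scaling gave 6 and 1, against 3.45% and 2.41% of all genes. A pseudocount of 0.1 gave 11 and 1, against 10.8% and 2.20%. A pseudocount of 5 gave 6 and 0, against 2.09% and 0.192%. Centring gave 5 and 1, against 2.17% and 3.24%. These differences were not tested. VATA, CBPA1, AMPN, CNDP2 and SERPH were past 1.5-fold under all alternatives run for them. CANX, PCP and CBPZ were not under 5, 6 and 4 of 9 alternatives, and VATB2 was not with a pseudocount of 5. Over the 5 scalings 46 genes kept a log2 ratio above 0, 11 one below 0, and 20 changed sign, VPP1, VA0D1, CATK, CASP8 and both hexosaminidase subunits among them. The same count was not made over all annotated genes, so it is not read as a difference from them. Depth limits CANX, VTC1B, TIMP2, DPEP3 and DPP10 most, with fewer than 100 reads per library each.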
